A study of Mus musculus with 143 samples.

Results

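The 9 serotonin receptor genes Htr1a, Htr1b, Htr1d, Htr1f, Htr2a, Htr2c, Htr4, Htr6 and Htr7 were followed in striatal RNA of zQ175 and wild-type mice. They were taken as a family by symbol from the 41128 mouse genes of the count table, and each symbol matched 1 Ensembl identifier. All 9 passed the filter on low counts in every fit, and none had a count of 0 in any of the 143 libraries.

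Serotonin reaches the striatum along axons of raphe neurons, whose cell bodies lie in the brainstem, and acts there on receptors of striatal neurons and of the axons that end on them. The Htr1 receptors couple to inhibitory G proteins and lower cyclic AMP, the Htr2 receptors couple to Gq and phospholipase C, and Htr4, Htr6 and Htr7 couple to stimulatory G proteins and raise cyclic AMP. Htr1b is known in this tissue as a receptor of the axon terminals of medium spiny neurons, the projection neurons of the striatum, and Htr2c is also one of the hallmark transcripts of the choroid plexus, the tissue that secretes cerebrospinal fluid and borders the striatum at the lateral ventricle.

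zQ175 mice are a knock-in model of Huntington's disease, with an expanded CAG repeat in the mouse Htt gene. The labels give no zygosity, and no dose or route for the siRNA. In each of 3 strategies, wild-type and zQ175 mice of both sexes were left untreated, given a non-targeting siRNA (NTC) or given HTT-10150, an siRNA against Htt. In strategy 2[4]6 the siRNA was given at 2 months and striatum was taken at 6 months; in 6[4]10 it was given at 6 months and tissue was taken at 10 months; in 2+6[8]10 it was given at 2 and again at 6 months, with tissue at 10 months. Each of the 18 groups held 4 females and 4 males, except wild type under HTT-10150 in 2+6[8]10, which held 2 females and 5 males.

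Total counts per library, in units of 1000000, ran from 12.55 to 29.19 with a median of 18.85. The lowest count of a receptor in any library was 14, for Htr1f, and the highest was 4800, for Htr2c. The tissue carried the markers of medium spiny neurons at a summed level of 4324 to 14398 CPM (counts per 1000000, with library sizes scaled by TMM), with none of the 9 markers at a median of 0. Markers of serotonergic neurons summed to 0.198 to 2.07 CPM, with 2 of the 3 at a median of 0. Choroid plexus markers summed to 31.7 to 5776 CPM, and 27 libraries, 13 of wild-type and 14 of zQ175 mice, exceeded 3 times the median. Htt, counted over both alleles, stood under HTT-10150 at 72% to 83.8% of its NTC mean in 5 of the 6 pairs of groups. In the libraries labelled zQ175, HTT-10150, 2[4]6 it stood at 99.5%, 127 ± 9.56 against 128 ± 10.8 CPM (SD, n = 8 each), so the effect of that treatment on Htt is not visible in these counts.

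Per transcript length, Htr1b and Htr2c were the most abundant of the 9 receptors in untreated wild-type striatum. In TPM (transcripts per 1000000), a level scaled by transcript length, Htr1b stood at 33.2 ± 2.61 and Htr2c at 29.6 ± 4.69 at 6 months in 2[4]6 (mean ± SD, n = 8). Htr1d followed at 15.5 ± 2.30 TPM. Its level did not overlap that of Htr2c in any strategy, whereas the ranges of Htr1b and Htr2c overlapped in all 3. Htr2a, at 7.98 ± 1.83 TPM, and Htr6, at 7.90 ± 1.11 TPM, overlapped each other and exchanged places between strategies. Below them lay Htr7 at 3.22 ± 0.636 TPM and Htr4 at 2.55 ± 0.289 TPM, which also overlapped. Htr1f at 1.89 ± 0.184 TPM and Htr1a at 1.69 ± 0.365 TPM were lowest. Htr1d and Htr2a overlapped in 2[4]6 only. At 10 months the pairs of Htr2a with Htr6, Htr7 with Htr4 and Htr1f with Htr1a again overlapped.

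The upstream sequences of the 2 most abundant receptors are shown because they are the ones that zQ175 moved in opposite directions, as given below. Windows of 250 bases before the annotated start came from RefSeq on GRCm38.p6. They were taken for 8 of the 9 genes, and no window was taken for Htr4. The Htr2c window lies on the plus strand at chrX:146962263-146962512 and the Htr1b window on the minus strand at chr9:81633833-81634082, each written 5′ to 3′ with CpG dinucleotides in capitals.
Htr2c: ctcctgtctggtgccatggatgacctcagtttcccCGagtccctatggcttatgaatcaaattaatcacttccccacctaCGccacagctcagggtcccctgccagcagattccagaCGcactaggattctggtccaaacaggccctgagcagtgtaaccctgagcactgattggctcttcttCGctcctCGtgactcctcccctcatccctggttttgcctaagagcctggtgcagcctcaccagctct
Htr1b: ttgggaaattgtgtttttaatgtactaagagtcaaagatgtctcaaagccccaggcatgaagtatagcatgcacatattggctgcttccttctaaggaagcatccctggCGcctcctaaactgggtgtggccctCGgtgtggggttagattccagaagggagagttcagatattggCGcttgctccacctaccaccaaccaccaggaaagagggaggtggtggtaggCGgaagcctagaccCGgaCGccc

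Both windows were of ordinary composition. The Htr2c window had 55.6% GC and 5 CpG dinucleotides and the Htr1b window 52.4% and 6, beside medians of 52.4% and 6 over 32851 windows of all genes. Both strands were searched for 6 motifs. The full cyclic AMP response element TGACGTCA is held by 1.55% of all windows, the shorter TGACG contained in it by 17.8%, the TATA box TATAAA by 12.4%, the GC box GGGCGG by 32.7%, the AP-1 site TGANTCA by 6.75% and the EGR site GCGTGGGCG by 0.536%. The Htr2c window held 1 AP-1 match and no other, and the Htr1b window held none of the 6. Htr7 stood at the other end in composition, with 82.0% GC and 41 CpG dinucleotides, at least as many as in 99.1% of windows, and it held TGACG and the EGR site.

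Genotype changed the receptors in a fixed pattern: Htr2c was higher and Htr1b and Htr4 were lower in zQ175 in all 9 comparisons with wild type, which used different animals (3 treatments in each of 3 strategies). Htr1d was lower in 6 of the 9 comparisons, Htr6 in 4, Htr2a in 2 and Htr1f in 1. Htr1a and Htr7 were called in none. A gene is called here where edgeR's quasi-likelihood test gave it an adjusted p under 0.05 (Benjamini-Hochberg, all genes tested). In untreated mice, 1 of the 9 receptors was higher in each strategy, beside 15.3%, 19.2% and 17.1% of all genes tested in 2[4]6, 6[4]10 and 2+6[8]10. Lower were 3, 4 and 3 receptors, beside 17.2%, 17% and 18.3% of all genes. Under NTC, 1 receptor was higher in each (background 15.9%, 16.8% and 20.7%) and 3, 4 and 4 were lower (background 18.5%, 15.9% and 21.4%). Under HTT-10150, 1 was higher in each (background 16.1%, 17.8% and 17.5%) and 4, 4 and 2 were lower (background 17.4%, 16.9% and 18.7%). With so many genes called in all, the share of receptors called higher was near the background. That called lower was above it where 3 or 4 were called, and near it for the 2 under HTT-10150 in 2+6[8]10. The lower calls other than Htr1b and Htr4 were in part lost in alternative runs, as given below, and the family as a whole was not tested. In untreated mice the median log2 fold change of the 9 receptors was -0.11, -0.22 and -0.22, beside 0.0035, 0.011 and 0.0031 for all genes.

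**Figure D1:**
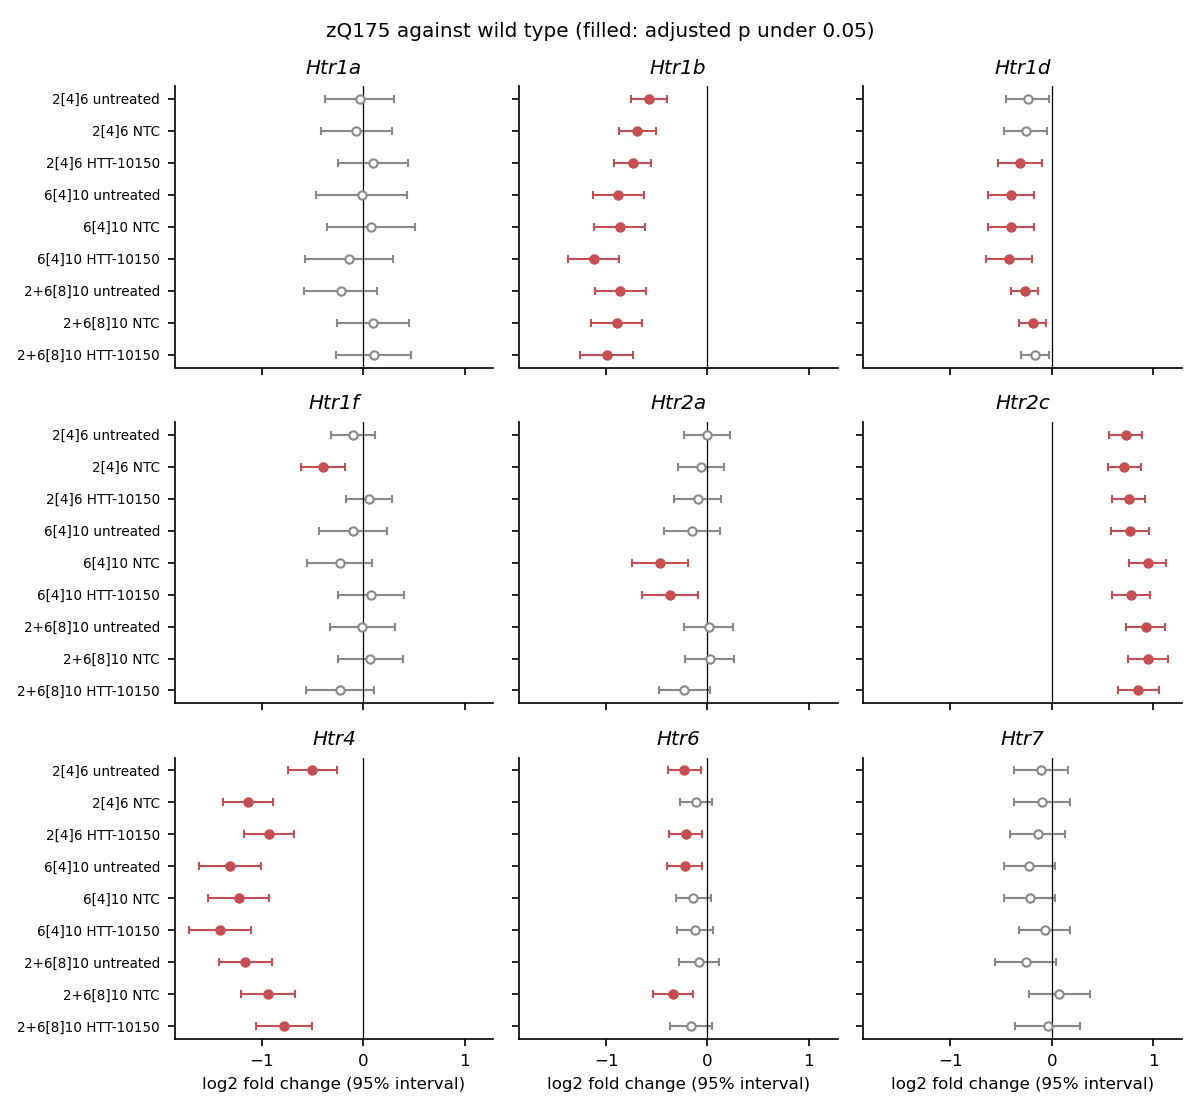
Log2 fold change of each receptor gene in zQ175 against wild type (x axis) in the 9 pairs of groups (y axis, strategy and treatment). Points are edgeR estimates with 95% intervals, filled where the adjusted p was under 0.05. Htr2c lies between 0.72 and 0.95 in every pair, and Htr1b (-1.12 to -0.58) and Htr4 (-1.41 to -0.50) lie wholly below 0.

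Among the receptors coupled to inhibitory G proteins, Htr1b fell most clearly. The gene (ENSMUSG00000049511) lies on the minus strand at chr9:81628291-81633828 on GRCm38. In untreated mice of 2[4]6, its level was 64.5 to 79.2 CPM with a median of 75.1 in wild type and 41.5 to 54.6 CPM with a median of 49.99 in zQ175. The ranges in 6[4]10 were 60.4 to 98.4 CPM (median 77.1) and 30.8 to 50.1 CPM (median 43.1). In 2+6[8]10 they were 72.1 to 121.01 CPM (median 77.4) and 38.4 to 57.7 CPM (median 47.4). All 8 zQ175 mice lay below all wild-type mice in each strategy. Htr1b was thus 1.49-fold lower in untreated zQ175 of 2[4]6 (log2 fold change -0.58, SE 0.092, adjusted p = 2.42e-06), 1.84-fold lower in 6[4]10 (-0.88, SE 0.13, adjusted p = 5.51e-07) and 1.82-fold lower in 2+6[8]10 (-0.86, SE 0.13, adjusted p = 6.48e-07). The mice given NTC or HTT-10150 gave the same picture, with fold changes down to 2.18-fold lower in 6[4]10 under HTT-10150, and the groups did not overlap in any of the 9 comparisons. The zQ175 group of 6[4]10 under HTT-10150 held 1 library far below its others, at 18.4 CPM (next 32.6). Over the whole series the highest zQ175 mouse, at 57.65 CPM, lay just under the lowest wild-type mouse, at 57.69 CPM. Htr1b overlaps the antisense gene D430036J16Rik, and whether counting used strand is not given in the sources used here. That gene held 13.4% as many counts as Htr1b, and it was also lower in 9 of 9 comparisons (log2 fold change -0.59 to -0.30), so reads of the pair cannot be told apart.

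**Figure D2:**
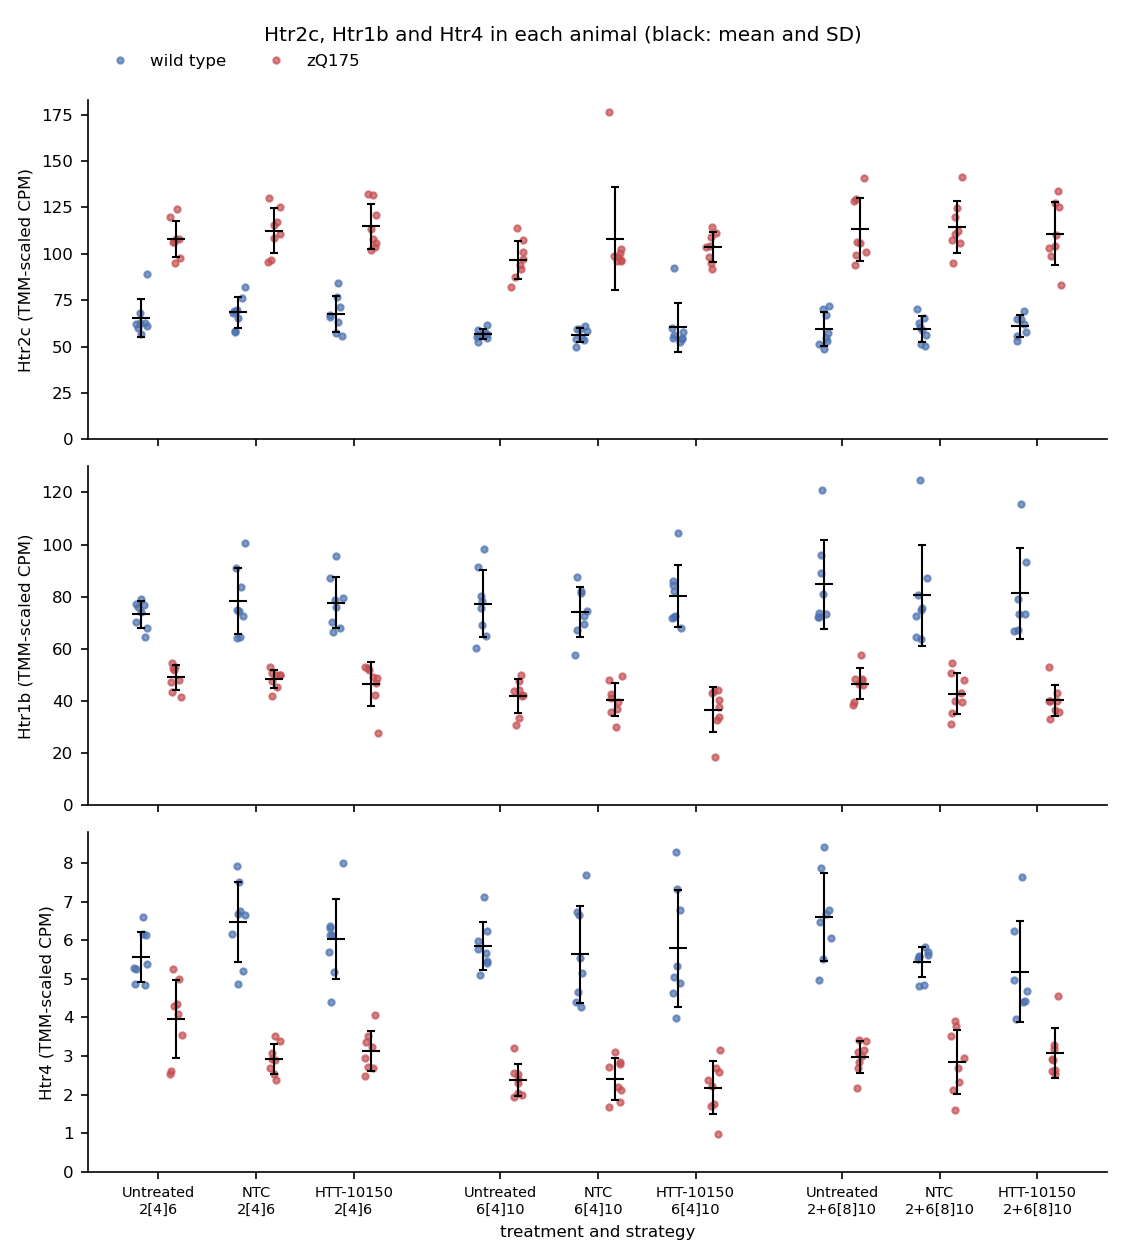
Level of Htr2c, Htr1b and Htr4 (y axes, TMM-scaled CPM from 0) in each animal of the 18 groups (x axis, treatment and strategy), with wild type in blue and zQ175 in red; black bars are the mean and SD. Htr1b in all 72 zQ175 mice lies below the lowest of the 71 wild-type mice, and 67 zQ175 mice lie above the highest wild-type mouse for Htr2c.

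Htr1d (ENSMUSG00000070687, plus strand, chr4:136423524-136444398), an inhibitory receptor like Htr1b and in part its neighbour on nerve terminals, moved the same way but less. In untreated 2[4]6, wild-type mice had 13.2 to 20.4 CPM (median 15.9) and zQ175 mice 11.6 to 17.1 CPM (median 12.8), and the groups overlapped. The difference was not called there (log2 fold change -0.24, SE 0.11, adjusted p = 0.0921). In alternative runs it was called with a choroid plexus covariate (-0.27, adjusted p = 0.0378) and a cortical covariate (-0.29, adjusted p = 0.0228). It was also called with only the groups compared (-0.24, adjusted p = 0.0242). In 6[4]10 the ranges were 9.38 to 19.02 CPM (median 15.6) and 9.96 to 13.8 CPM (median 11.3), and Htr1d fell (-0.40, SE 0.11, adjusted p = 0.0048). It also fell in untreated 2+6[8]10 (-0.27, SE 0.068, adjusted p = 0.00172), from 13.1 to 16.8 CPM in wild type to 10.99 to 16.1 CPM in zQ175. The log2 fold change was below 0 in all 9 comparisons, from -0.42 to -0.17. The calls in 6[4]10 under NTC and HTT-10150 (-0.40 and -0.42) were kept in every alternative run, while those elsewhere were not. Without the animals numbered 4 the untreated 6[4]10 value was -0.36 (adjusted p = 0.0684). Without those numbered 2 the untreated 2+6[8]10 value was -0.17 (adjusted p = 0.134). In 2[4]6 under HTT-10150 (-0.31, adjusted p = 0.0257) the call was lost without the animals numbered 2 (-0.33, adjusted p = 0.0698) or 4 (-0.12, adjusted p = 0.448). With all animals kept it was also lost with no filter (-0.31, adjusted p = 0.0524) and with only the groups compared (-0.30, adjusted p = 0.129). In 2+6[8]10 under NTC (-0.19, adjusted p = 0.0239) the call was lost without 2, 3 or 4 (-0.20, -0.18 and -0.18, adjusted p = 0.0608, 0.0715 and 0.0758).

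Htr1a and Htr1f, the least abundant of the family, showed little. Htr1a (ENSMUSG00000021721, chr13:105443639-105448122, plus strand) encodes the receptor known as the autoreceptor of raphe neurons. It ranged from 1.16 to 6.76 CPM in wild type (median 3.13, n = 71) and from 1.30 to 5.12 CPM in zQ175 (median 3.11, n = 72), and its log2 fold change ran from -0.22 to 0.10 with no call in 9 comparisons. Htr1f (ENSMUSG00000050783, chr16:64924729-65105854, minus strand), a receptor targeted by the migraine drug lasmiditan, ranged from 0.983 to 2.85 CPM in wild type (median 1.88) and from 0.729 to 2.67 CPM in zQ175 (median 1.77). Its 1 call, in 2[4]6 under NTC (-0.40, SE 0.11, adjusted p = 0.00428), was lost without the animals numbered 4 (-0.25, adjusted p = 0.133) and just missed the threshold without the libraries high in choroid plexus markers (-0.33, adjusted p = 0.0502). In the untreated groups of the same strategy it was -0.10 (SE 0.11, adjusted p = 0.525).

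Of the receptors coupled to Gq, Htr2c was the receptor that rose in zQ175. The gene (ENSMUSG00000041380, plus strand, chrX:146962513-147197277) is X-linked and holds the small RNA genes Mir764, Mir1912, Mir1264, Mir1298, Mir448 and Snora35 in its introns. In untreated 2[4]6 it ranged from 56.6 to 89.2 CPM in wild type (median 62.3) and from 95.2 to 123.9 CPM in zQ175 (median 107.2). The ranges in 6[4]10 were 52.4 to 61.7 CPM (median 56.4) and 82.2 to 114 CPM (median 95.7). In 2+6[8]10 they were 48.5 to 71.9 CPM (median 56.0) and 94.1 to 141 CPM (median 106). All 8 zQ175 mice exceeded all wild-type mice in each strategy, as they did in 8 of the 9 comparisons; in 6[4]10 under HTT-10150, 7 of 8 did. Htr2c was 1.66-fold higher in untreated zQ175 of 2[4]6 (log2 fold change 0.73, SE 0.084, adjusted p = 1.67e-09), 1.71-fold higher in 6[4]10 (0.77, SE 0.095, adjusted p = 1.03e-08) and 1.90-fold higher in 2+6[8]10 (0.93, SE 0.099, adjusted p = 3.42e-10). Over the other 6 comparisons it was 1.64-fold to 1.93-fold higher.

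Because the choroid plexus is rich in Htr2c, its markers were set beside these values. Among wild-type libraries, Htr2c had a median of 70.5 CPM (52.4 to 92.3) in the 13 with a marker sum over 3 times the median and of 58.5 CPM (48.5 to 76.3) in the other 58. Among zQ175 libraries the medians were 126 CPM (95.7 to 176.5) in 14 and 106 CPM (82.2 to 134) in 58. The median of Htr2c was thus higher in the high-marker set of both genotypes. The ranges of the sets overlapped, the sets mix strategies and treatments, and this difference was not tested. The lowest zQ175 library of the low-marker set still exceeded the highest wild-type library of that set. The 12 choroid plexus markers had median log2 fold changes of -1.44, 0.41 and 0.99 in untreated zQ175 of 2[4]6, 6[4]10 and 2+6[8]10, and none was called by edgeR in these 3 comparisons, with 0 at an unadjusted p under 0.05 and 0 by DESeq2. In treated mice some were. Under NTC in 6[4]10, 4 of the 12 were higher in zQ175, beside 16.8% of all genes tested. DESeq2 called 4 as well, 11 were at an unadjusted p under 0.05, and the median was 1.80. The sums there were 61.3 to 938 CPM in wild type and 44.9 to 5776 CPM in zQ175. Under HTT-10150 in 6[4]10, 4 were lower, beside 16.9% of all genes tested (10 at an unadjusted p under 0.05, 9 called by DESeq2, median -2.07). The sums there were 68.2 to 2830 CPM in wild type and 31.7 to 138 CPM in zQ175. In 2+6[8]10 under NTC the median was 2.43, with 0 called by edgeR or DESeq2 and 7 at an unadjusted p under 0.05, and under HTT-10150 it was 1.73, with 0 at each. In 2[4]6 the medians were -0.13 under NTC and 0.14 under HTT-10150, with 0 at each. With the 27 libraries left out, the log2 fold change of Htr2c ran from 0.76 to 0.93 over the 9 comparisons, and with the marker sum as a covariate from 0.71 to 0.91. Every one of these was called, and the highest library of all, 176.5 CPM in a zQ175 female of 6[4]10 under NTC, also had the highest marker sum, 5776 CPM.

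**Figure D3:**
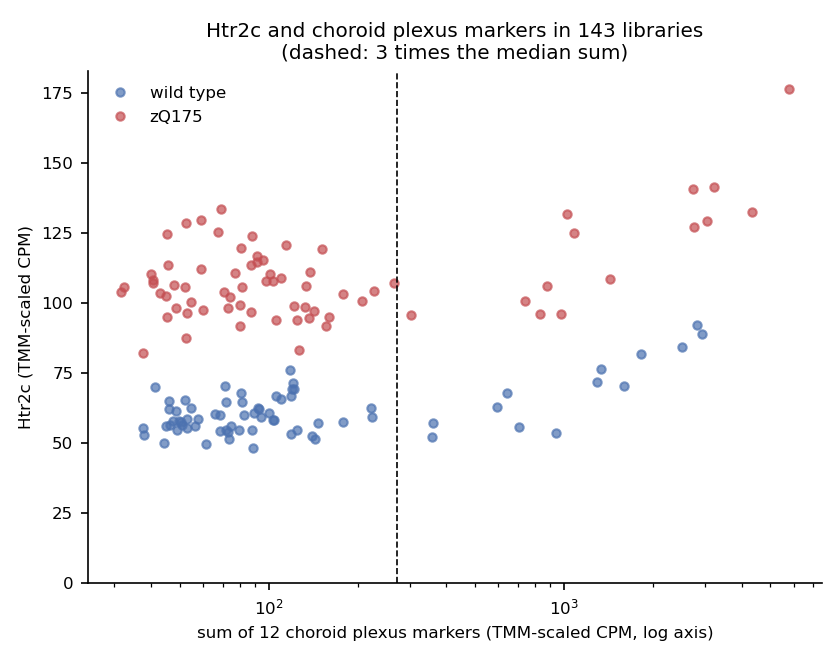
Htr2c (y axis, TMM-scaled CPM) against the summed level of 12 choroid plexus markers (x axis, TMM-scaled CPM, log axis) in 143 libraries, wild type in blue and zQ175 in red. The dashed line is 3 times the median sum. Left of it zQ175 mice span 82.2 to 134 CPM and wild-type mice 48.5 to 76.3 CPM. The ranges to the right of it overlap these within each genotype and reach higher.

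Htr2a (ENSMUSG00000034997, plus strand, chr14:74640840-74709494), the receptor of classical hallucinogens and abundant in cortex, did not follow Htr2c. It ranged from 5.77 to 16.4 CPM in wild type (median 9.83) and from 4.14 to 14.1 CPM in zQ175 (median 9.34). Untreated mice gave log2 fold changes of -0.0082 (SE 0.12, adjusted p = 0.969), -0.15 (SE 0.14, adjusted p = 0.434) and 0.013 (SE 0.12, adjusted p = 0.949) in 2[4]6, 6[4]10 and 2+6[8]10. In 6[4]10 it fell under NTC, with 6.88 to 14.7 CPM (median 9.18) in wild type and 4.14 to 10.3 CPM (median 7.19) in zQ175 (-0.47, SE 0.14, adjusted p = 0.00795). It also fell under HTT-10150, with 8.10 to 11.001 CPM (median 9.94) and 5.08 to 9.34 CPM (median 7.76) (-0.37, SE 0.14, adjusted p = 0.0365). Groups overlapped in both. Neither call held in every alternative: without the animals numbered 4 the NTC value was -0.23 (adjusted p = 0.304), and under HTT-10150 the call was lost whichever number was left out (adjusted p = 0.0552 to 0.122).

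Among the receptors coupled to stimulatory G proteins, Htr4 fell in all 9 comparisons, with somewhat more overlap between genotypes than Htr1b: 65 of 72 zQ175 mice lay below the lowest wild-type mouse. Htr4 (ENSMUSG00000026322, plus strand, chr18:62324204-62496577) raises cyclic AMP and is known for promoting acetylcholine release. In untreated 2[4]6 it ranged from 4.85 to 6.60 CPM in wild type (median 5.33) and from 2.53 to 5.27 CPM in zQ175 (median 4.20), and 6 of 8 zQ175 mice lay below all wild-type mice. In 6[4]10 the ranges were 5.11 to 7.12 CPM (median 5.72) and 1.95 to 3.21 CPM (median 2.36), and in 2+6[8]10 they were 4.97 to 8.43 CPM (median 6.59) and 2.16 to 3.43 CPM (median 3.05). The untreated groups did not overlap at 10 months. In 2+6[8]10 under HTT-10150 they did, with 3.95 to 7.64 CPM in wild type and 2.54 to 4.55 CPM in zQ175, and 7 of 8 zQ175 mice lay below all wild-type mice (-0.78, SE 0.14, adjusted p = 1.29e-05). Htr4 was 1.42-fold lower in untreated zQ175 of 2[4]6 (log2 fold change -0.50, SE 0.12, adjusted p = 0.00101), 2.49-fold lower in 6[4]10 (-1.31, SE 0.16, adjusted p = 2.37e-09) and 2.24-fold lower in 2+6[8]10 (-1.16, SE 0.13, adjusted p = 6.14e-10). In 2[4]6 the other animals gave larger differences, 2.21-fold lower under NTC (-1.14, SE 0.13, adjusted p = 2.19e-10) and 1.91-fold lower under HTT-10150 (-0.93, SE 0.13, adjusted p = 4.44e-08). The wild-type means there were 5.57 ± 0.647, 6.47 ± 1.04 and 6.03 ± 1.046 CPM in untreated, NTC and HTT-10150 mice, and the zQ175 means were 3.96 ± 1.01, 2.93 ± 0.396 and 3.13 ± 0.521 CPM (SD, n = 8 each).

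Htr6 (ENSMUSG00000028747, minus strand, chr4:139061108-139075570), a receptor of the brain that is enriched in the striatum, was slightly lower in zQ175. It ranged from 4.76 to 10.1 CPM in wild type (median 7.88) and from 4.61 to 9.44 CPM in zQ175 (median 6.845), and its log2 fold change was below 0 in all 9 comparisons. It was called in untreated 2[4]6 (-0.23, SE 0.082, adjusted p = 0.0269), untreated 6[4]10 (-0.22, SE 0.089, adjusted p = 0.0439), 2[4]6 under HTT-10150 (-0.22, SE 0.084, adjusted p = 0.0421) and 2+6[8]10 under NTC (-0.34, SE 0.10, adjusted p = 0.00558). Groups overlapped each time. None of the 4 calls held in every alternative. In untreated 2[4]6 the call was lost without the animals numbered 2, 3 or 4 (-0.26, -0.15 and -0.18, adjusted p = 0.0635, 0.281 and 0.149). The same held in untreated 6[4]10 (-0.19, -0.21 and -0.22, adjusted p = 0.177, 0.136 and 0.129). It was lost without 1, 2 or 4 in 2[4]6 under HTT-10150 (-0.22, -0.22 and -0.13, adjusted p = 0.0556, 0.126 and 0.336). In 2+6[8]10 under NTC it was lost without 1 (-0.27, adjusted p = 0.0677). Some of these values lay near those with all animals kept, from fewer mice. With all animals but no filter, all calls except that in 2+6[8]10 were lost (adjusted p = 0.0618, 0.0578 and 0.0821). Htr7 (ENSMUSG00000024798, minus strand, chr19:35958734-36057507), known from thalamus and hypothalamus and studied for circadian timing, ranged from 2.12 to 6.33 CPM in wild type (median 3.86) and from 2.17 to 5.38 CPM in zQ175 (median 3.48). Its log2 fold change ran from -0.25 to 0.074 with no call.

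Markers of medium spiny neurons moved with these differences. All 9 were lower in untreated zQ175 in each strategy, with median log2 fold changes of -0.81, -0.69 and -0.78 in 2[4]6, 6[4]10 and 2+6[8]10. Of all genes tested, 17.2%, 17% and 18.3% were lower in these comparisons. The summed level of the 9 markers in untreated 2[4]6 was 11280 to 13800 CPM in wild type and 6950 to 7835 CPM in zQ175. That sum in 6[4]10 was 9842 to 12515 CPM and 6249 to 7769 CPM, and in 2+6[8]10 it was 10531 to 12288 CPM and 6241 to 7324 CPM. Htr1b and Htr4 fell along with this list and Htr2c rose against it. In bulk tissue fewer cells of a type and less RNA per cell cannot be told apart, and the part of the neurons' own state in the receptor values was not tested.

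The order of the 2 most abundant receptors was reversed in zQ175. In TPM, the ratio of Htr2c to Htr1b ran from 0.472 to 1.27 in wild type (median 0.781), and Htr2c exceeded Htr1b in 5 of 71 mice. In zQ175 the ratio ran from 1.63 to 5.63 (median 2.46), and Htr2c exceeded Htr1b in 72 of 72 mice. The ratio is built from differences already given and is described without a test of its own.

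**Figure D4:**
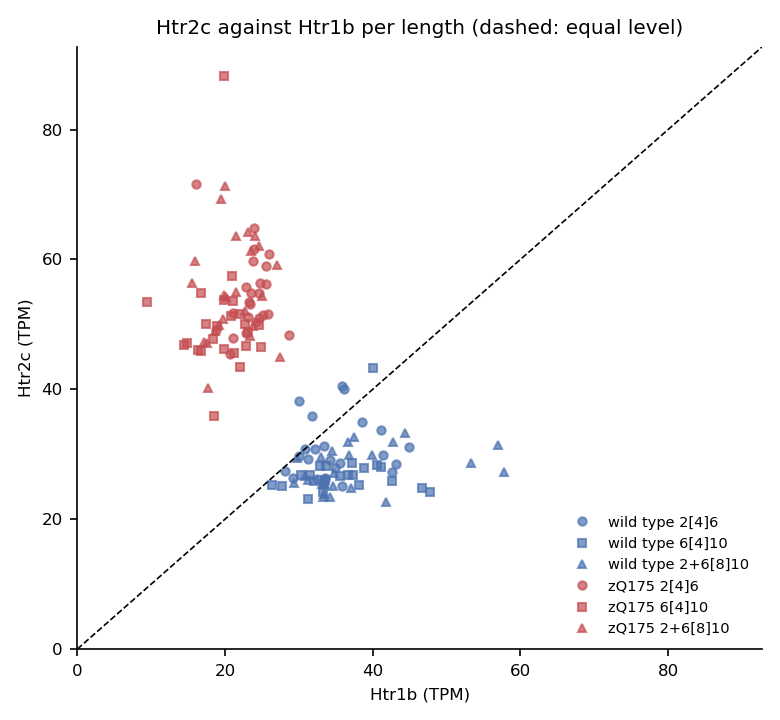
Htr2c (y axis, TPM) against Htr1b (x axis, TPM) in 143 mice, with wild type in blue, zQ175 in red and the marker shape giving the strategy; the dashed line marks equal levels. All 72 zQ175 mice lie above the line, as do 5 of the 71 wild-type mice.

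HTT-10150 left the receptors where NTC left them, as far as these groups can show. Htt itself stood at 99.5% of its NTC mean in zQ175 of 2[4]6 and at 72% to 83.8% in the other pairs of groups. The comparisons thus cover a partial lowering of Htt RNA, or none visible. No receptor was called by edgeR in any of the 6 comparisons of HTT-10150 with NTC; of these 54 tests, 1 reached an unadjusted p under 0.05, and 0 were called by DESeq2. All genes tested gave few calls as well: in zQ175, 0%, 0% and 3.16% in 2[4]6, 6[4]10 and 2+6[8]10, and in wild type 0.00636%, 0% and 0.0129%. For Htr2c the log2 fold change lay between -0.062 and 0.10, and the outermost bounds of its 95% intervals were -0.24 and 0.29. For Htr1b the values lay between -0.14 and 0.12 (outermost bounds -0.40 and 0.36), and for Htr4 between -0.14 and 0.12 (outermost bounds -0.47 and 0.39). In zQ175 of 2+6[8]10, where 3.16% of genes were called, Htr2c was -0.052 (SE 0.095, adjusted p = 0.847), Htr1b -0.098 (SE 0.13, adjusted p = 0.776) and Htr4 0.12 (SE 0.14, adjusted p = 0.746). The widest interval of the family belonged to Htr1a, up to 0.67. These intervals do not show that the siRNA had no effect.

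**Figure D5:**
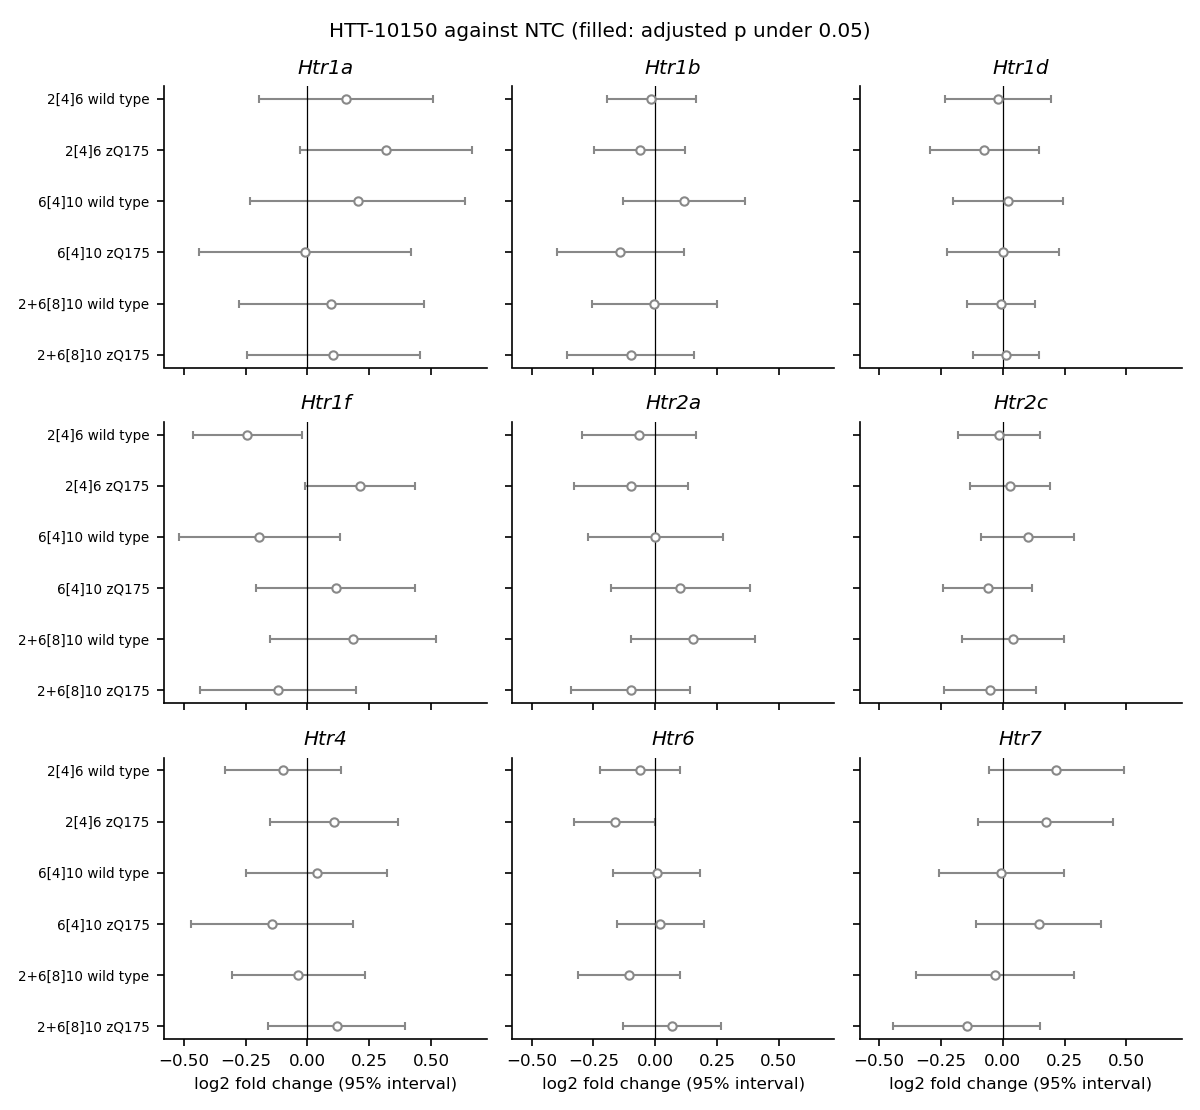
Log2 fold change of each receptor gene under HTT-10150 against NTC (x axis) in wild type and zQ175 of each strategy (y axis). Points are edgeR estimates with 95% intervals, and a filled point would mark an adjusted p under 0.05. No point is filled, and the intervals of Htr2c stay between -0.24 and 0.29.

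The non-targeting siRNA and the genotype-by-siRNA term gave no calls either. NTC against untreated, which shares its NTC mice with the comparisons above, called 0 of 9 receptors by edgeR in zQ175 (0% of all genes in each strategy) and in wild type (0%, 0% and 0.181%). The interaction of genotype with HTT-10150 also called 0 of 9 (0%, 0% and 0.529% of all genes). Over all 15 siRNA comparisons 6 values reached an unadjusted p under 0.05, 4 for Htr1f and 2 for Htr4, and 0 were called by DESeq2. The Htr4 values were -0.42 under NTC in zQ175 of 2[4]6 (SE 0.13, adjusted p = 0.963) and -0.29 under NTC in wild type of 2+6[8]10 (SE 0.13, adjusted p = 0.38). Among the Htr1f values the farthest from 0 was 0.45 for the genotype difference in 2[4]6 (SE 0.16, adjusted p = 1).

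Between strategies, age, cohort and collection differ together and cannot be told apart. Untreated wild-type mice of 6[4]10, taken at 10 months, had lower Htr1f and Htr2a than those of 2[4]6, taken at 6 months: 2 of 9 receptors called, beside 16.6% of all genes. Htr1f ranged from 1.81 to 2.47 CPM at 6 months (median 2.27) and from 1.32 to 1.91 CPM at 10 months (median 1.48), with 6 of 8 older mice below all younger ones (log2 fold change -0.50, SE 0.15, adjusted p = 0.0101). Htr2a ranged from 7.77 to 16.4 CPM (median 11) and from 6.77 to 11.4 CPM (median 7.76) (-0.38, SE 0.13, adjusted p = 0.0324). Markers of cortical and claustral neurons summed to 48.5 to 364 CPM (median 119) in the younger and 17.3 to 150.8 CPM (median 49.4) in the older wild-type mice, and with that sum as a covariate Htr2a was -0.31 (adjusted p = 0.0922). The Htr2a call was also lost without the animals numbered 1 (-0.20, adjusted p = 0.444) or 2 (adjusted p = 0.0646), and the Htr1f call without 1 or 4 (adjusted p = 0.0677 and 0.0567).

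In untreated zQ175 mice the same 2 receptors and Htr4 were lower in 6[4]10 than in 2[4]6, 3 of 9 beside 16.5% of all genes. Htr2a ranged from 9.47 to 14.1 CPM at 6 months (median 10.4) and from 6.44 to 8.73 CPM at 10 months (median 7.46), with no overlap (-0.53, SE 0.13, adjusted p = 0.00252). Htr1f was -0.50 (SE 0.15, adjusted p = 0.0101), a call lost without the animals numbered 2 (-0.35, adjusted p = 0.199). Htr4 was -0.74 (SE 0.15, adjusted p = 0.000152), with 6 of 8 older mice below all younger ones, whereas in wild type it was 0.077 (SE 0.13, adjusted p = 0.75). The difference of the Htr4 genotype effect between 6[4]10 and 2[4]6 was -0.82 (SE 0.20, adjusted p = 0.0254), the only receptor called there, beside 0.835% of all genes. That call was lost without the animals numbered 1 (-0.88, adjusted p = 0.105), 3 (-0.68, adjusted p = 0.2) or 4 (-0.70, adjusted p = 0.146). It covers untreated mice only, with zQ175 means of 3.96 CPM in 2[4]6 and 2.37 CPM in 6[4]10. The zQ175 means were 2.93 and 2.40 CPM under NTC, and 3.13 and 2.18 CPM under HTT-10150. In wild type they were 6.47 and 5.64 CPM under NTC, and 6.03 and 5.79 CPM under HTT-10150. The difference between strategies was not tested in treated mice.

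Mice of 2+6[8]10, also taken at 10 months, gave other values. In untreated wild type, Htr6 was lower than in 2[4]6 (-0.28, SE 0.093, adjusted p = 0.0291), 1 of 9 receptors beside 15% of all genes, and the call was lost without the animals numbered 3 or 4 (-0.21 and -0.17, adjusted p = 0.289 and 0.401). Htr1f was -0.30 (SE 0.15, adjusted p = 0.159) and Htr2a -0.17 (SE 0.13, adjusted p = 0.4). In untreated zQ175, edgeR called 0 of 9, beside 2.49% of all genes, with 1 at an unadjusted p under 0.05 and 0 by DESeq2; Htr4 was -0.41 (SE 0.14, adjusted p = 0.0976). For the difference of the genotype effect, edgeR called 0 of 9 against 2[4]6 (0.0675% of all genes; 1 at an unadjusted p under 0.05, 0 by DESeq2), with Htr4 at -0.65 (SE 0.20, adjusted p = 0.159). It called 0 of 9 against 6[4]10 (0.0123% of all genes; 0 at an unadjusted p under 0.05, 0 by DESeq2).

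Between sexes 1 receptor was called. Htr2a was lower in females of 2[4]6 (log2 fold change female against male -0.21, SE 0.068, adjusted p = 0.0299), 1 of 9 receptors beside 16.6% of all genes, and the call was lost without the animals numbered 1, 2 or 3 (adjusted p = 0.0922, 0.12 and 0.0895). DESeq2 also called 1 of 9 in that strategy, and 4 of 9 were at an unadjusted p under 0.05. Htr1a (-0.23, SE 0.10, adjusted p = 0.108) was called without the animals numbered 4 (-0.33, adjusted p = 0.0346), and Htr1d (0.14, SE 0.064, adjusted p = 0.123) without those animals (0.19, adjusted p = 0.0315) or without the libraries high in choroid plexus markers (0.22, adjusted p = 0.0296). In 6[4]10 and 2+6[8]10 edgeR called 0 of 9, beside 2.21% and 2.10% of all genes, with 0 at an unadjusted p under 0.05 and 0 by DESeq2; Htr2a there was -0.12 (SE 0.082) and -0.077 (SE 0.073). The X-linked Htr2c was 0.064 (SE 0.048), 0.10 (SE 0.054) and 0.000088 (SE 0.059) in the 3 strategies and was not called.

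Other genes of serotonin signalling were counted as lists in untreated mice. Of 5 further receptor genes, Htr3a, Htr5a and Htr5b were tested and Htr2b and Htr3b were too low. Htr3a, a subunit of the only serotonin receptor that is an ion channel, was -0.16, -0.29 and -0.030 in 2[4]6, 6[4]10 and 2+6[8]10 (SE 0.14, 0.15 and 0.18), Htr5a was -0.079, 0.13 and 0.11 (SE 0.073, 0.099 and 0.086), and Htr5b was -0.11, -0.024 and -0.0025 (SE 0.29, 0.28 and 0.33). None of the 3 was called by edgeR in untreated mice of any strategy, with 0 at an unadjusted p under 0.05 and 0 by DESeq2. In treated mice, Htr5a was higher in zQ175 of 2+6[8]10 under NTC (0.32, SE 0.085, adjusted p = 0.0022; DESeq2 adjusted p = 0.000981), and Htr3a was higher in 6[4]10 under HTT-10150 (0.37, SE 0.15, adjusted p = 0.0474), where DESeq2 did not call it (adjusted p = 0.0717). Htr5a, an inhibitory receptor, was the highest of them, at a mean of 10.6 CPM in wild type and 10.0 CPM in zQ175 of 2[4]6.

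Of 12 genes of serotonin synthesis, transport and breakdown, 9 were tested. In 2[4]6, 2 were higher and 3 lower; in 6[4]10, 1 and 2; in 2+6[8]10, 1 and 1. Over all genes tested, 15.3%, 19.2% and 17.1% were higher and 17.2%, 17% and 18.3% lower in the same comparisons. Their median log2 fold change was -0.24, 0.019 and -0.033. Slc22a3, a low-affinity carrier that takes up monoamines, fell in all 3 strategies (-0.52, -0.52 and -0.71, SE 0.087, 0.11 and 0.071). Ddc, the decarboxylase shared by serotonin and dopamine synthesis, rose in 2[4]6 (0.29, SE 0.072, adjusted p = 0.00112) and 2+6[8]10 (0.25, SE 0.082, adjusted p = 0.0116). Aldh2, which acts on the aldehyde left by monoamine oxidase, fell in 2[4]6 (-0.25, SE 0.057) and 6[4]10 (-0.13, SE 0.044). The monoamine oxidases rose slightly in 1 strategy each, Maoa in 2[4]6 (0.16, SE 0.046) and Maob in 6[4]10 (0.13, SE 0.046). Tph2, the rate-limiting enzyme of serotonin synthesis in raphe neurons, was called lower in 2[4]6 alone (-0.71, SE 0.21, adjusted p = 0.00585), at means of 1.32 CPM in wild type and 0.805 CPM in zQ175. At 10 months Tph2 was 0.21 (SE 0.24, adjusted p = 0.521) and -0.52 (SE 0.23, adjusted p = 0.0717). Slc6a4, the serotonin transporter, was below the filter.

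The list of receptor partners and transducers held 16 genes, all tested. Of these, 3 were higher and 8 lower in 2[4]6, 5 and 9 in 6[4]10, and 4 and 8 in 2+6[8]10, with medians of -0.092, -0.14 and -0.13, beside the same shares of all genes. S100a10, an adaptor known to bind Htr1b and Htr4 and carry them to the cell surface, fell in each strategy (-0.57, -0.78 and -0.997, SE 0.10, 0.090 and 0.093 in 2[4]6, 6[4]10 and 2+6[8]10). Adcy5, the main adenylyl cyclase of the striatum, fell in each (-0.90, -0.85 and -0.82, SE 0.063, 0.075 and 0.048), as did Plcb1, the phospholipase C below Gq (-0.52, -0.48 and -0.49, SE 0.049, 0.063 and 0.041). The scaffold Dlg4 (-0.42, -0.28 and -0.30), the G protein subunits Gnao1 (-0.31, -0.24 and -0.26) and Gnal (-0.24, -0.19 and -0.19), the arrestin Arrb1 (-0.24, -0.21 and -0.14) and Adar, an enzyme that edits Htr2c RNA (-0.12, -0.11 and -0.15), were also lower in all 3. The editing enzyme Adarb1 was lower in 6[4]10 only (-0.18, SE 0.055, adjusted p = 0.00971). Mpdz, a scaffold that binds Htr2c, was higher in all 3 (0.27, 0.29 and 0.23, SE 0.066, 0.083 and 0.051), together with the G protein subunits Gnai1 (0.18, 0.18 and 0.16) and Gnaq (0.098, 0.11 and 0.067). Gnai2 was higher at 10 months (0.16 and 0.13) and Gna11 in 6[4]10 (0.069). Adcy5 and Gnal also stand in the list of medium spiny neuron markers. Editing and isoforms of Htr2c cannot be read from gene counts.

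The genes whose level most resembled each receptor over the 143 libraries differed in how much of the likeness lay within groups. Among 13190 genes, the nearest to Htr1b were Homer1, Osbpl8 and Ppp1r16b (Pearson r of log2 CPM 0.938, 0.932 and 0.921), and after removing group means r was still 0.731, 0.696 and 0.678. Nearest to Htr2c were Sfmbt2, Timp2 and Lrrn3 (0.907, 0.905 and 0.904), with r of 0.21, 0.455 and 0.333 within groups. Nearest to Htr4 were Scn4b, Stc1 and Ddit4l (0.864, 0.86 and 0.86), with 0.194, 0.31 and 0.153 within groups. The likeness of Htr2c and Htr4 to these genes was thus mostly shared between groups, which differ in genotype, and that of Htr1b was also present among animals of the same group. Within groups, the genes nearest to Htr1a gave r of 0.674 to 0.703 and those nearest to Htr7 0.619 to 0.676. For Htr1d it was 0.595 to 0.675, for Htr6 0.59 to 0.64, for Htr2a 0.493 to 0.602 and for Htr1f 0.426 to 0.483. Over all libraries r was lower for these members than for Htr1b, Htr2c and Htr4. The nearest to Htr1d were Tomm70a, Nexn and Kcnd2 (0.78, 0.766 and 0.761), to Htr6 Sez6, Cpne5 and Lrrn2 (0.742, 0.737 and 0.732), and to Htr7 Slc6a11, Kcnc2 and Adcy8 (0.699, 0.674 and 0.643). Those to Htr2a were Nrip1, 1700020I14Rik and Zfyve9 (0.686, 0.647 and 0.612), to Htr1a Sez6l, Asic2 and Pde1a (0.679, 0.67 and 0.669), and to Htr1f Wdr47, Slc35f1 and Spin1 (0.559, 0.517 and 0.516). The libraries share depth and dissection as well as genotype, and these values are descriptions.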

How the data were processed

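Polyadenylated RNA of mouse striatum was sequenced, 1 library per mouse. Per the submitters' processing notes, the authors used RSEM and the GRCm38 build. The RSEM version, the aligner, the annotation and the strandedness were not given in the sources used here. The deposited table of RSEM expected counts was rounded to whole numbers (78.4% of nonzero values were whole within 1e-06), and 7 entries for constructs or mutant Htt, with 5.91e-06% of counts, were left out. A second deposited table, named for FPKM, has columns that each sum to 1000000 and was read as TPM for levels per length.

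Groups came from the labels. Levels are TMM-scaled CPM. Tests used edgeR 4.0.16 (R 4.3.3) with glmQLFit and glmQLFTest after filterByExpr and TMM, with robust dispersions, fitted per strategy over 6 groups with sex as a term, or over all 143 libraries with sex within strategy for comparisons between strategies. Adjusted p is Benjamini-Hochberg over all genes tested, and 95% intervals use the normal approximation to the log2 fold change and its SE. The fit was also run on counts simulated for 2[4]6 as independent libraries. That run cannot show how the fit behaves where libraries share a block or a dissection. Alternatives were DESeq2 1.42.0, RLE size factors, no filter, no sex term, the replicate block, choroid plexus and cortical covariates, leaving out replicate numbers or the libraries with a choroid plexus marker sum over 3 times the median, and only the groups compared. The genes named are the 9 members, the called members of the pathway lists with the 2 of largest fold change in each, and the 3 genes most correlated with each member (log2 CPM, prior count 2). D430036J16Rik was named after its values were seen. Members, lists and alternatives were chosen with earlier results of these data known. Gene positions are from GENCODE M21 on GRCm38. Of 117 listed symbols, 116 had an identifier.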

Additional observations from a re-analysis of the deposited data

Results flagged for a closer look

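Over 9 receptors in 18 groups, 14 sets of values held 1 library far from the others of its group by Dixon's criterion; chance gives about 1 in 20 such sets. For Htr2c these were the untreated wild-type female 2 of 2[4]6 at 89.2 CPM (next 67.9), the wild-type female 2 under HTT-10150 in 6[4]10 at 92.3 CPM (next 60.2) and the zQ175 female 4 under NTC in 6[4]10 at 176.5 CPM (next 103). Their choroid plexus marker sums were 2933, 2830 and 5776 CPM, beside a median of 91.0 over all libraries, and the part of these sums in the Htr2c values was not tested.

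For Htr1b, the zQ175 female 4 under HTT-10150 in 2[4]6 was low at 27.7 CPM (next 42.3), with a choroid plexus sum of 4345 CPM, and was also low in Htr2a at 6.60 CPM (next 9.78). The zQ175 male 2 under HTT-10150 in 6[4]10 was low in Htr1b at 18.4 CPM (next 32.6) and high in Htr1f at 2.54 CPM (next 1.94), with a cortical marker sum of 378 CPM beside a median of 74.9. Its sum of medium spiny neuron markers, 4324 CPM, was the lowest of all libraries, beside a median of 7036 CPM in its group. The wild-type male 4 under NTC in 2+6[8]10 was high in Htr1b at 125 CPM (next 87.1).

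Htr1a was high in the wild-type male 1 under HTT-10150 in 2[4]6 at 6.76 CPM (next 4.00) and in the wild-type male 2 under NTC in 2+6[8]10 at 4.81 CPM (next 3.13), with cortical marker sums of 453 and 257 CPM. Htr4 was high in the zQ175 female 3 under HTT-10150 in 2+6[8]10 at 4.55 CPM (next 3.28), with a cortical sum of 347 CPM. Htr1f was high in the wild-type male 3 under NTC in 2+6[8]10 at 2.63 CPM (next 1.90), Htr2a in the untreated zQ175 female 4 of 2+6[8]10 at 12.6 CPM (next 10.3), and Htr7 in the untreated wild-type female 1 of 6[4]10 at 4.81 CPM (next 3.85). The part of other cell types in these values was not tested.

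The effect of genotype on Htr4 in untreated mice differed between 6[4]10 and 2[4]6 by -0.82 on the log2 scale (edgeR's quasi-likelihood test, Benjamini-Hochberg adjusted p = 0.0254), with the exceptions given above for animals left out. Treated mice were not tested for it. Under NTC the zQ175 means were 2.93 CPM in 2[4]6 and 2.40 CPM in 6[4]10, beside wild-type means of 6.47 and 5.64 CPM. Under HTT-10150 they were 3.13 and 2.18 CPM, beside 6.03 and 5.79 CPM.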

How the results depend on the processing

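Of 3694 values of single receptors recomputed under 13 alternatives, 3624 kept their side of the threshold, 55 lost a call and 15 gained one. None reversed a call, and 225 differed in sign with no call under either setting. Htr2c (log2 fold change 0.65 to 1.07), Htr1b (-1.20 to -0.54) and Htr4 (-1.55 to -0.39) stayed called in all 9 genotype comparisons under every alternative. Members called lower under HTT-10150 in 2[4]6 went from 4 to 2 with no filter, to 2 with only the groups compared, and to 2 to 4 with 1 replicate number left out. In untreated 6[4]10 the 4 lower became 2 to 4 with 1 number left out. Between sexes in 2[4]6, the 1 lower in females became 0 without the choroid plexus libraries and 0 to 2 with 1 number left out, and the 0 higher became 1 and 0 to 1. For untreated wild type of 6[4]10 against 2[4]6 the 2 lower became 1 with no filter, 1 with the cortical covariate, 1 without the choroid plexus libraries and 0 to 2 with 1 number left out; for 2+6[8]10 against 2[4]6 the 1 lower became 0 without the choroid plexus libraries and 0 to 1. The Htr4 difference of the genotype effect (1 lower) became 0 to 1, and DESeq2 gave it no adjusted p. The causes were not tested, beyond there being fewer samples in the sets with animals left out.

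Replicate numbers were not taken as pairs, under a rule that every same-numbered pair correlate above 0.1. Single pairs can fall below that by noise, so the rule cannot decide whether the numbers mark blocks. Library names of same-numbered mice of 1 genotype often share a number across treatments, and the labels do not say what it marks. The replicate block used sex and replicate number across both genotypes, so grouping by the number in the library names was not tested. Deviations of same-numbered libraries of 2[4]6 correlated from -0.387 to 0.637, with a median of 0.111 beside -0.022 for other pairs and 62 of 120 over 0.1. The medians were 0.042 beside -0.011 in 6[4]10 and 0.039 beside -0.012 in 2+6[8]10. Own numbers gave the best mean correlation, among the classes of sex and number, for 14 of 48, 15 of 48 and 12 of 47 libraries. The count that chance would give was not computed, so these values do not show that the mice are independent, as the main tests take them. With the replicate block, 3 receptors in place of 4 were lower in untreated 6[4]10 (Htr6 -0.22, adjusted p = 0.0544) and 3 in place of 2 under HTT-10150 in 2+6[8]10 (Htr1d -0.20, adjusted p = 0.0407); it moved no other count in the genotype and siRNA comparisons. Male 5 of wild type under HTT-10150 in 2+6[8]10 was not left out in turn. Low counts limit Htr1f (14 to 64 per library) and Htr1a (median 58) most.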

Other observations

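Other cell type lists stood as follows in untreated zQ175 against wild type (edgeR's quasi-likelihood test). Over all genes tested, 15.3%, 19.2% and 17.1% were higher and 17.2%, 17% and 18.3% lower in 2[4]6, 6[4]10 and 2+6[8]10. With so few genes per list, a count such as 1 of 4 stands near these shares. Of 7 genes of direct pathway neurons, the medium spiny neurons that carry Drd1, 2 were higher and 4 lower in 2[4]6, 2 and 3 in 6[4]10, and 1 and 4 in 2+6[8]10, with median log2 fold changes of -0.18, -0.12 and -0.15. Of 5 genes of indirect pathway neurons, which carry Drd2, 5, 4 and 4 were lower, with medians of -0.88, -0.66 and -0.85. Of 5 genes of cholinergic interneurons 3, 4 and 3 were lower (medians -0.15, -0.30 and -0.23), and of 7 of GABA interneurons 4, 3 and 3 (medians -0.24, -0.23 and -0.30). Of 4 astrocyte genes 2, 3 and 3 were lower (medians -0.11, -0.20 and -0.20), of 4 of microglia 3, 2 and 1 (medians -0.14, -0.13 and -0.043), of 4 of oligodendrocytes 2, 2 and 2 (medians -0.093, -0.14 and -0.19) and of 3 of endothelium 2, 3 and 2 (medians -0.25, -0.30 and -0.21). No gene of the interneuron, glial or endothelial lists was higher in these 3 comparisons. In these bulk libraries the receptors cannot be assigned to any of these cells.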
